A study of Mus musculus with 2 samples.

Results

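The genes described here are 9 homeobox factors of the organizer and of anterior tissue in the gastrulating mouse embryo: Gsc, Lhx1, Noto, Otx2, Otx1, Hhex, Hesx1, Six3 and Pax7. They were taken by gene symbol from the 32285 genes of the deposited matrix, and all 9 were found. With them went every accessibility peak (a stretch of open chromatin) within 50 kb of their starts, 218 of 229480 peaks. The material was a pool of mouse embryos at embryonic day 7.0, profiled as nuclei that each gave nuclear RNA and open chromatin. The 2 samples, 1 for RNA and 1 for accessibility, held the same 15341 barcodes. The labels gave no genotype and no treatment. They conflicted on the source: title, age and protocol named the embryos, whereas tissue, cell type and strain entries named gut sections, goblet cells and RedMUC298trTg. In the 12796 nuclei kept, a list of goblet and intestinal genes had 2.67 CPM (counts per 1000000 UMIs), against 1619 CPM for epiblast genes and 4237 CPM for visceral endoderm genes. The grouping therefore followed the title, and no nucleus could be assigned to an embryo.

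The RNA library held 182201512 UMIs (counted RNA molecules) and the accessibility library 273131304 peak counts, and the kept nuclei had medians of 10471 UMIs and 17350 peak counts. No comparison had a replicate, so no test was run. Every interval is at 95%, comes from exact Poisson or binomial limits and covers counting error only. To keep a gene's own signal out of the grouping, RNA of the members was read in classes of nuclei built from accessibility without the 218 peaks. Accessibility of the peaks was read in classes built from RNA without the 9 genes. A class name below means nuclei like that tissue, as judged from marker lists that held none of the 9 genes. From accessibility these were 912 nuclei with markers of definitive endoderm, node and anterior streak (in short, anterior streak), 891 like embryonic and anterior visceral endoderm (embryonic visceral endoderm), 1620 of other visceral endoderm and 3812 of epiblast. The other named classes were embryonic mesoderm with 987 nuclei, primitive streak with 918, extraembryonic ectoderm with 1274, ectoplacental cone with 313 and haemato-endothelial progenitor with 296. A parietal endoderm class of 26 nuclei was too small to describe, and 1747 nuclei in 3 clusters stayed unnamed.

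As background, the organizer is the group of cells at the anterior end of the primitive streak that later forms the node, axial mesoderm and definitive endoderm. The anterior visceral endoderm is a signalling layer outside the epiblast that restrains Nodal and Wnt signals and helps to set the head end of the axis. Homeobox factors bind short AT-rich DNA elements, and several of those studied here are needed in both tissues for the head to form.

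In mm10 the deposited gene table places the start of Gsc at position 104473330 of chromosome 12, of Noto at 85423886 of chromosome 6 and of Otx1 at 22001615 of chromosome 11. The other 6 genes have a range of starts: Lhx1 from 84522331 to 84525535 on chromosome 11, Otx2 from 48662872 to 48673819 and Hesx1 from 26994416 to 27000362 on chromosome 14, Hhex from 37434810 to 37436739 on chromosome 19, Six3 from 85613608 to 85621031 on chromosome 17 and Pax7 from 139833007 to 139833528 on chromosome 4. By RefSeq gene bounds, 44 of the 218 peaks overlapped the member itself, 81 another gene and 93 no gene. Which exon or intron a peak lies in was not analysed here.

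Sequence upstream of the outermost deposited start is shown for Gsc, Lhx1, Noto and Hhex, whose promoter peaks are compared further on and whose RefSeq promoter (GRCm38.p6) reaches beyond that start. A short stretch is added for Otx2, the last 30 bases before the RefSeq start under its downstream start peak, and for Six3, around a motif match. Sequences read 5′ to 3′ on the gene's strand, and capitals mark a motif match.
Gsc, chr12:104473331-104473486, minus strand: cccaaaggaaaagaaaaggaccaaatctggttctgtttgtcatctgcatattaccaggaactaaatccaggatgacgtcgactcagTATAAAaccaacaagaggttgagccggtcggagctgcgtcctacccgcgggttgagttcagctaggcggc
Lhx1, chr11:84525536-84525784, minus strand: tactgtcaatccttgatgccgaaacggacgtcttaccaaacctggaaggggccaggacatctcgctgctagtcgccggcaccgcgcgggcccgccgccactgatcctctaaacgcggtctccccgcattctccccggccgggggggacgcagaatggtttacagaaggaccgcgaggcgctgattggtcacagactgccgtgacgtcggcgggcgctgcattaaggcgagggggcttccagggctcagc
Noto, chr6:85423636-85423885, plus strand: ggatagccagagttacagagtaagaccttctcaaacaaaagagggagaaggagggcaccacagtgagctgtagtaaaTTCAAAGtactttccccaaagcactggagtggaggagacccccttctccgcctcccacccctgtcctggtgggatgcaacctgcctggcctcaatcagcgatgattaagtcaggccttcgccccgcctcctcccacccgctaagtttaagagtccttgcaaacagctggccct
Hhex, chr19:37434591-37434809, plus strand: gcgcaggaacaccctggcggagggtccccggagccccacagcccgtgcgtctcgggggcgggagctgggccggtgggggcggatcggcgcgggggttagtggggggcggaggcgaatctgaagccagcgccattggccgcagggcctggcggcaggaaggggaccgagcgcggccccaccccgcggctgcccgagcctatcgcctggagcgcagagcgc
Otx2, chr14:48662735-48662764, minus strand: cagcgtctcccgggttctttttagttagtg
Six3, chr17:85620779-85620808, plus strand: gctgcactcacTGTGGATTtaggggagata

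The 250 bases upstream of the RefSeq starts of 8 members were searched on both strands for 6 motifs: TAATCC (the Otx and Gsc type), TAATTA (the homeodomain core), TGTTTAC (forkhead), AATCCACA (Foxh1), CTTTGAA (Tcf/Lef) and TATAAA (the TATA box). Gsc held a TATAAA match 164 bases before its RefSeq start, a motif in 12.4% of all 32851 RefSeq promoters. Noto held a Tcf/Lef match, in 4.46%. The Six3 stretch searched, at a start near the downstream end of its range, held a Foxh1 match, in 0.718% of promoters. No stretch at its first start was searched. Otx2 has several RefSeq starts. Of these, 1 held a TAATCC match with TAATTA matches beside it and another held TAATTA with a TATAAA match, but no peak lay over either. The promoters differed in base composition: Hhex had 32 CpG in 250 bases and 76% GC, Lhx1 26 CpG, Gsc 22, Noto 5 and Hesx1 2, with 34% GC, beside a median of 6 CpG and quartiles of 2 and 16 over all promoters. The Hesx1 and Six3 stretches lay at downstream starts only, and that of Pax7 did not reach beyond its outermost start. A match is a string of letters and was not tested as a binding site.

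Among the organizer factors, Gsc (goosecoid, a repressor that marks the organizer) was highest in the anterior streak class, at 201 CPM (interval 192 to 210; 1920 UMIs). It reached 72.7 CPM in embryonic visceral endoderm, 48.0 in embryonic mesoderm, 31.8 in primitive streak and 15.8 in epiblast. Each of these 5 levels differed from the next beyond counting error. Ectoplacental cone, other visceral endoderm, extraembryonic ectoderm and haemato-endothelial progenitors followed between 13.1 and 10.1 CPM, and no neighbours in that order, epiblast and ectoplacental cone included, differed beyond it. The anterior streak level was 12.7 times that of epiblast (11.6 to 13.9), and a Gsc UMI was present in 72.4% of anterior streak nuclei. Thinned to 4000 UMIs per nucleus, that share was 47.8% (44.4 to 51.1), compared with 5.82% of epiblast and 5.04% of extraembryonic ectoderm nuclei, a tissue not known for Gsc. The median depths of these classes were 9785, 9857 and 12499 UMIs, and no share at or below that of extraembryonic ectoderm was read as expression. Free RNA was not measured here.

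Lhx1, a LIM-domain homeobox factor needed for head and axial mesoderm, had another distribution. It was at 992 CPM in anterior streak (972 to 1012), at 725 CPM in embryonic mesoderm (708 to 742) and at 456 CPM in embryonic visceral endoderm (444 to 467). All other named classes lay between 41.4 and 82.2 CPM, epiblast at 45.7. A cluster of 957 nuclei that stayed unnamed, with markers of embryonic and of extraembryonic mesoderm raised, also had 822 CPM of Lhx1. Lhx1 RNA was thus high in mesoderm-like as well as in organizer-like nuclei. Thinned shares of nuclei with a UMI were 78.1% in anterior streak, 75.2% in embryonic mesoderm and 62.0% in embryonic visceral endoderm, against 14.8% in epiblast and 14.5% in extraembryonic ectoderm.

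Noto, a factor of the node and notochord known for its role in building nodal cilia, had 86 UMIs in all kept nuclei, of which 53 were in the anterior streak class. That class had 5.54 CPM (4.15 to 7.25), embryonic visceral endoderm 1.35 CPM (0.80 to 2.14), and no other named class exceeded 0.446 CPM. The fold of anterior streak over epiblast, 44.2, rested on 5 epiblast UMIs and ranged from 17.8 to 142.

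**Figure D1:**
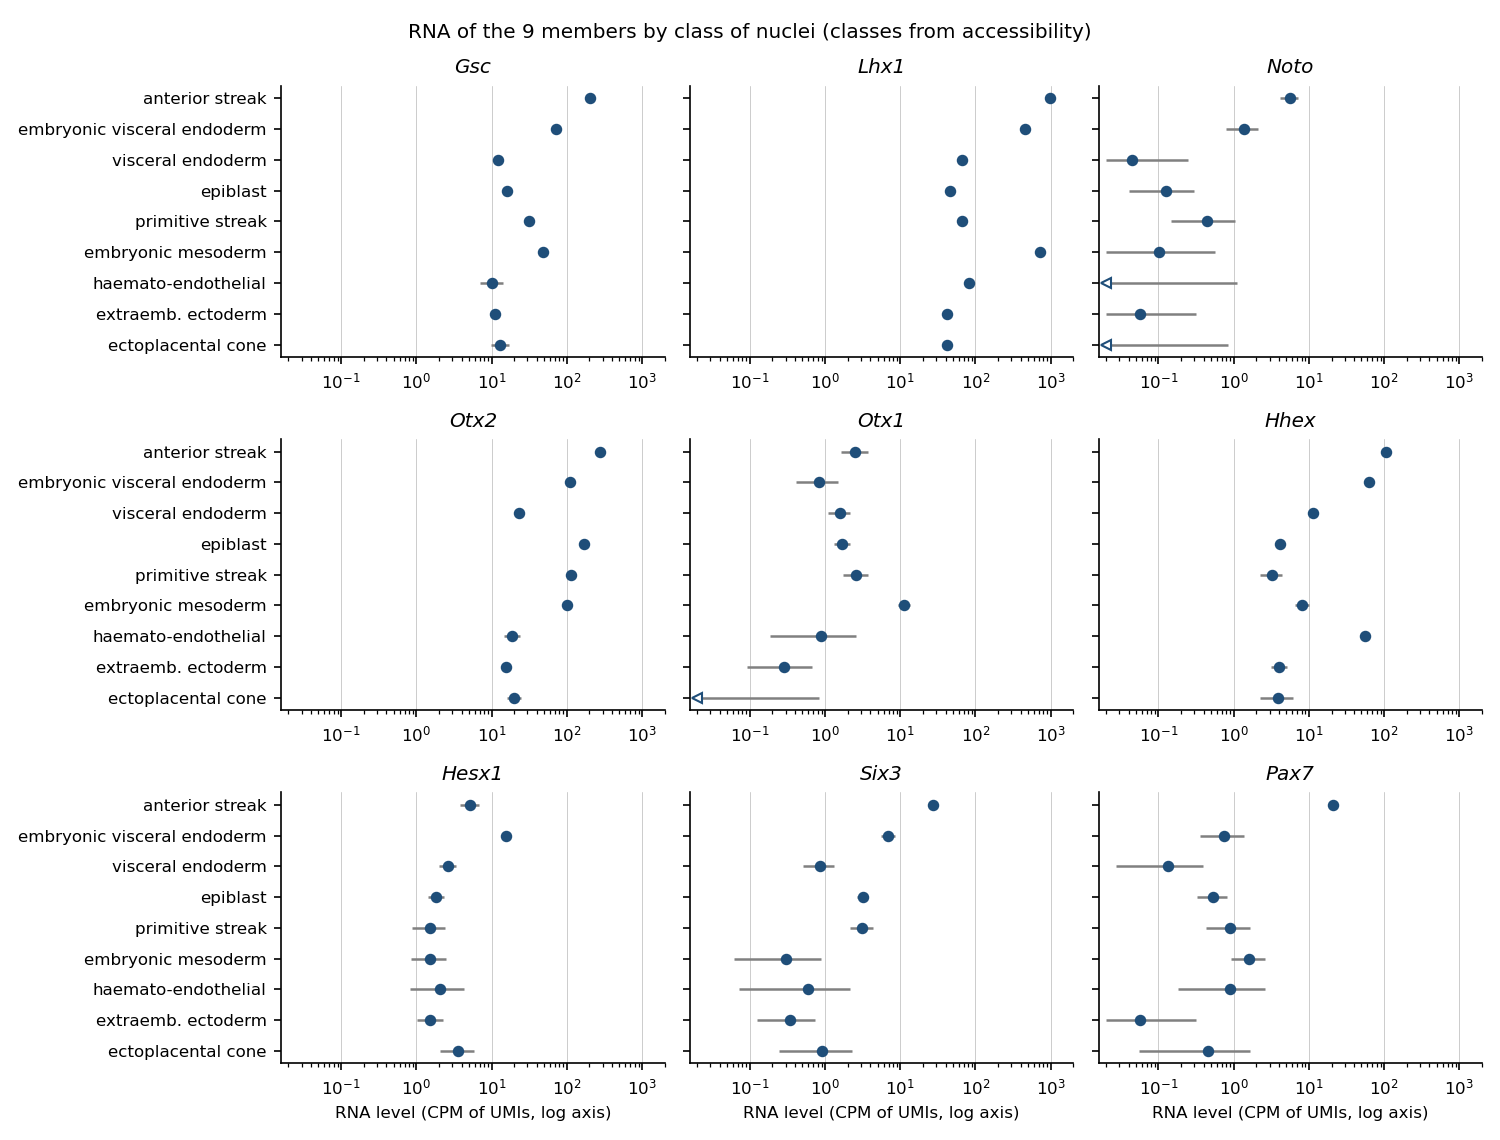
RNA level of each member (CPM of UMIs on a log axis) in 9 classes of nuclei made from accessibility; points are levels, bars 95% counting intervals and open triangles classes with no UMI. Gsc, Lhx1, Noto, Otx2, Hhex, Six3 and Pax7 lie furthest right in anterior streak, Hesx1 in embryonic visceral endoderm at 15.5 CPM and Otx1 in embryonic mesoderm at 11.2 CPM.

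The Otx pair differed. Otx2, which is required in the visceral endoderm and later for forebrain and midbrain, was present in most embryonic classes: 280 CPM in anterior streak (269 to 290), 172 in epiblast (168 to 176), 115 in primitive streak, 112 in embryonic visceral endoderm and 102 in embryonic mesoderm. It was at 23.1 CPM in other visceral endoderm and at 15.5 CPM in extraembryonic ectoderm. Anterior streak exceeded epiblast by 1.63-fold (1.56 to 1.70), under the 2-fold used as a call here. The direction in embryonic visceral endoderm changed with the grouping of nuclei, and the cause was not tested. As grouped here it was 0.65 times epiblast (0.62 to 0.69), and under 4 other groupings it was 1.11 to 1.35 times epiblast. Of the 891 nuclei of that class, 33.0% belonged to an RNA cluster of other visceral endoderm with 15.2 CPM of Otx2. The embryonic visceral endoderm cluster made from RNA had 167 CPM. Otx1, its paralogue with later roles in the brain, was low, with 343 UMIs in kept nuclei. Its highest level was in embryonic mesoderm, at 11.2 CPM (9.26 to 13.5), 6.69 times epiblast. Primitive streak (2.59 CPM), anterior streak (2.51) and epiblast (1.68) could not be told apart for Otx1.

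Hhex and Hesx1 are best known from the anterior visceral endoderm. Hhex, which also acts in definitive endoderm and in blood and vessel progenitors, was at 106 CPM in anterior streak (99.4 to 113), 63.0 in embryonic visceral endoderm (58.8 to 67.4) and 56.4 in haemato-endothelial progenitors (48.7 to 65.0). As grouped here, the latter 2 classes did not differ beyond counting error, with a ratio of 1.12 (0.95 to 1.31). The embryonic visceral endoderm cluster made from RNA had 92.0 CPM of Hhex. That cluster also had more Gsc (111 CPM), Lhx1 (654) and Hesx1 (24.6) than the class made from accessibility. As given above, part of the accessibility class fell in RNA clusters of other visceral endoderm, so these levels depend on the grouping. Other visceral endoderm had 11.4 CPM, embryonic mesoderm 8.13 and epiblast 4.16. Haemato-endothelial progenitors were 13.6 times epiblast for Hhex. Hesx1, a repressor of anterior visceral endoderm and forebrain, was the member highest in embryonic visceral endoderm, at 15.5 CPM (13.4 to 17.7; 206 of 493 UMIs). It had 5.12 CPM in anterior streak (3.79 to 6.77) and 1.51 to 3.62 CPM in the 7 other classes named above. The fold of anterior streak over epiblast for Hesx1 was 2.80 (1.91 to 4.08) but 0.991 when accessibility was clustered more finely, so that its direction depended on the grouping. Embryonic over other visceral endoderm, Hesx1 was 5.88-fold higher.

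Six3 and Pax7 are usually described from later head tissue. Six3, a forebrain and eye factor that represses Wnt genes, had 27.1 CPM in anterior streak (23.9 to 30.6) and 6.91 CPM in embryonic visceral endoderm (5.57 to 8.47). Epiblast, at 3.16 CPM, and primitive streak, at 3.12 CPM, were the only other named classes above 1 CPM. Pax7, a paired-box factor of dorsal neural tube and muscle progenitors, had 202 of its 285 UMIs in the anterior streak class, at 21.1 CPM (18.3 to 24.2) in 130 of 912 nuclei. Embryonic mesoderm followed at 1.61 CPM (0.92 to 2.61), and no other named class reached 1 CPM. Anterior streak was 40.1 times epiblast (25.5 to 66.2) for Pax7 and 28.1 times embryonic visceral endoderm. For Six3 the fold over epiblast was 8.57 (6.90 to 10.7). With thinned nuclei, 6.61% of anterior streak nuclei had a Pax7 UMI, against 0.14% of epiblast and 0.08% of extraembryonic ectoderm nuclei.

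Over all members, 7 of 9 were highest in the anterior streak class, and this fell to 4 with the finest clustering. The highest class of some members thus depended on the grouping, and which members these were is not reported here. The share of all genes highest in that class is not given, so this count only describes the members. At least 2-fold over epiblast with at least 20 UMIs in both classes together were 7 of 9 members in anterior streak, where 7.34% of 17110 genes were that much higher, and none was at most 0.5 times epiblast, as 8.56% of genes were. The members outside that count were Otx2 and Otx1. In embryonic visceral endoderm 6 of 9 passed, against 14.4% of genes, and Noto, Gsc, Lhx1, Hhex, Hesx1 and Six3 were those members. Otx1 was lower there (0.49, 0.23 to 0.94), as were 23.3% of genes. In other visceral endoderm only Hhex passed, at 2.73-fold, against 15.6% of genes, and 3 were lower (Otx2 at 0.13, Pax7 at 0.25 and Six3 at 0.27 times epiblast), against 23.6% of genes. Embryonic mesoderm had 4 members past the fold (Lhx1 15.9-fold, Otx1 6.69, Pax7 3.05 and Gsc 3.03), against 7.4% of genes, and Six3 lower, at 0.095, against 11.6% of genes. In primitive streak Gsc alone passed, at 2.01-fold (1.76 to 2.29), against 2.88% of genes, and no member was lower, against 4.61%. In haemato-endothelial progenitors Hhex alone was higher, against 9.9% of genes, and Otx2 (0.11) and Six3 (0.19) were lower, against 16.5%. Embryonic over other visceral endoderm, 6 members were higher (Gsc, Lhx1, Otx2, Hhex, Hesx1 and Six3), against 7.15% of genes, and none lower, against 8.43%. Anterior streak over embryonic mesoderm, 7 were higher, against 8.33% of genes, and Otx1 lower, at 0.22, against 5.93%. Lhx1, at 1.37-fold, was the remaining member. Because the members had been chosen with results of these data known, these shares describe them and are no independent support, and the comparisons share the epiblast nuclei. Fewer cells with a transcript and less RNA per cell cannot be told apart in class sums.

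The anterior streak class of accessibility was split by RNA. Of its 912 nuclei, 54.4% fell in an RNA cluster of 509 nuclei led by Cer1 (a secreted Nodal and BMP antagonist) and 38.6% in a cluster of 636 nuclei led by the ciliary genes Zbbx, Foxj1 and Cfap44. The ciliary cluster carried the name anterior streak, node and definitive endoderm. Of its nuclei 55.3% lay in the anterior streak class of accessibility, against 97.4% of the Cer1-led cluster. It had Foxa2 at 204 CPM and Chrd at 138, but Sox17 at 12.3, near the 9.28 CPM of epiblast nuclei. The Cer1-led cluster stayed unnamed because embryonic visceral endoderm and anterior streak markers were both raised in it. In it, Foxa2 was at 161 CPM, Sox17 at 217, Cer1 at 408, Chrd at 54.4 and Foxj1 at 6.49, and the visceral endoderm genes Cubn and Afp stood at 90.6 and 25.3 CPM, near the 101 and 25.9 CPM of epiblast nuclei. Of 8 embryonic visceral endoderm markers 5 were raised. Amot was at 959 CPM, Sfrp1 at 248, Lefty1 at 177 and Dkk1 at 108, against 126, 38.3, 10.0 and 10.9 in epiblast. Fzd5, Pga5 and Sfrp5 were at 56.3, 24.4 and 7.55 CPM, against 14.1, 4.04 and 2.13 in epiblast. The embryonic visceral endoderm cluster of RNA had more of Amot (3681 CPM), Sfrp1 (463), Dkk1 (334), Fzd5 (267), Pga5 (146) and Sfrp5 (125). It had less of Cer1 (175) and Lefty1 (147) than the Cer1-led cluster. The anterior streak markers Pifo and Nog were at 3.69 and 0.70 CPM, near the 4.06 and 0.63 of epiblast.

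Between these 2 clusters the members separated. The Cer1-led cluster was higher for Lhx1 (1393 against 248 CPM, 5.60-fold), Hhex (149 against 28.7 CPM, 5.20-fold) and Pax7 (33.5 against 1.94 CPM, 17.3-fold, 9.69 to 34.1). It was also higher for Six3 (35.6 against 9.52 CPM, 3.74-fold), Otx2 (348 against 157 CPM, 2.21-fold) and Gsc (239 against 109 CPM, 2.20-fold). Hesx1 had 41 UMIs against 4, an 11.2-fold difference with an interval of 4.04 to 42.9. Noto went the other way, with 8 UMIs against 46, a ratio of 0.19 (0.08 to 0.40), where 6.93% of genes were at most 0.5 times. Of the 9 members, 7 were at least 2-fold higher in the Cer1-led cluster, where 3.91% of 13800 genes were. Set against the embryonic visceral endoderm cluster of RNA, the Cer1-led cluster had more Pax7 (36.8-fold, 18.3 to 86.5), Six3 (3.64-fold), Gsc (2.15-fold), Lhx1 (2.13-fold) and Otx2 (2.08-fold), but less Hesx1 (0.29, 0.20 to 0.41). In that comparison, 13.9% of genes were at least 2-fold higher and 11.1% at least 2-fold lower. Restricting the ciliated and Cer1-led clusters to nuclei of the anterior streak accessibility class, a restriction chosen after seeing the data, left 5 of 9 members at least 2-fold higher, against 3.9% of genes, and Noto lower, at 0.11 (0.05 to 0.24), against 6.94% of genes. Gsc, at 1.56-fold (1.41 to 1.73), and Otx2, at 1.96-fold (1.78 to 2.15), no longer passed. Lhx1 was then 3.62-fold higher, Hhex 3.50-fold, Six3 2.29-fold, Pax7 9.34-fold (5.22 to 18.4) and Hesx1 8.19-fold on 41 against 3 UMIs.

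**Figure D2:**
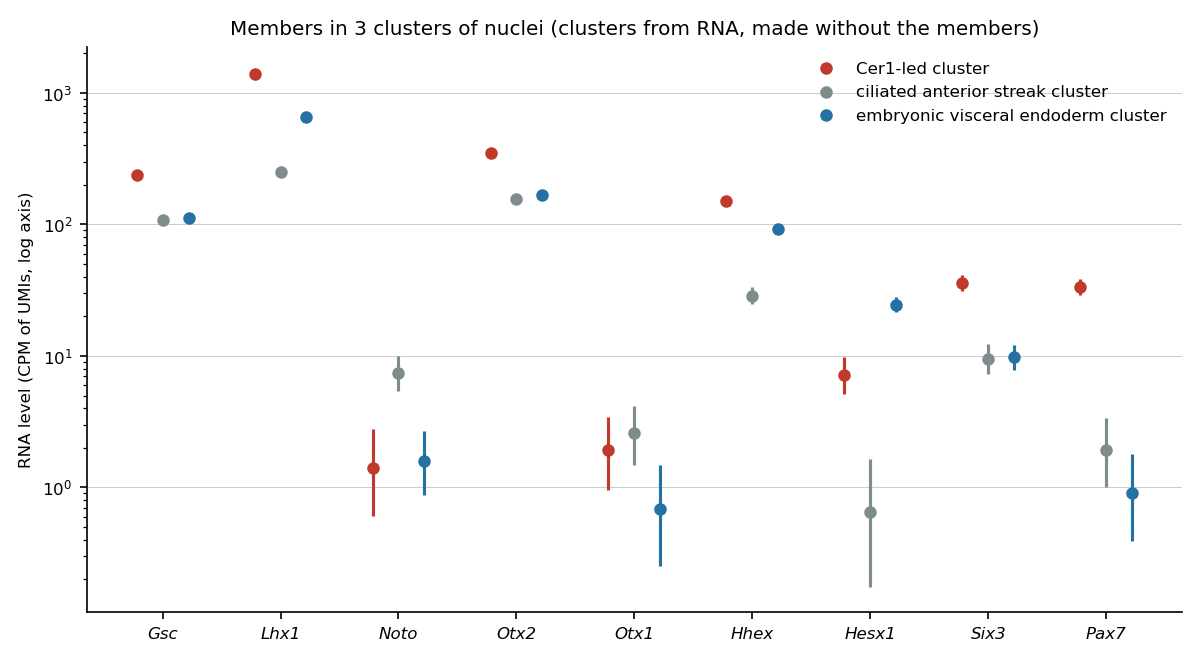
RNA level of the members (CPM of UMIs, log axis) in 3 clusters made from RNA without the members; bars are 95% counting intervals. Pax7, Six3, Lhx1 and Gsc are highest in the Cer1-led cluster, Hesx1 in the embryonic visceral endoderm cluster (24.6 CPM) and Noto in the ciliated cluster (7.42 CPM).

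Detection of members in the same nuclei was described after thinning to 4000 UMIs. Among 877 anterior streak nuclei deep enough, 419 had a Gsc UMI, and 88.3% of these (84.8 to 91.2) also had Lhx1, against 68.8% of nuclei without Gsc. Of 260 Hhex-positive nuclei 247 had Lhx1, against 71.0% of the others. Pax7 was seen in 8.32% of 685 Lhx1-positive nuclei and in 0.52% of 192 others. Six3 was seen in 12.3% and 2.60% of the same groups. Intervals overlapped for the sparse members: Noto was seen in 12 Lhx1-positive and 6 other nuclei (1.75% and 3.12%), Hesx1 in 16 and 1, and Otx1 in 6 and 2. In embryonic visceral endoderm, Otx2 was found in 50.3% of 159 Gsc-positive and 23.7% of 710 other nuclei, and Hesx1 in 10.7% of 150 Hhex-positive and 2.78% of 719 other nuclei. These classes were mixtures, as described above, and how far the mixture sets these shares was not tested.

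Genes with the most similar pattern were found by Pearson correlation of log2(CPM + 1) across 18 accessibility clusters, as a description only, since clusters share 1 library and its depth. Lhx1 was most similar to its antisense neighbour Lhx1os (r = 0.95), then Kcns3 and Cfc1. Whether the counting used strand is not given in the sources used here, so reads of overlapping antisense genes may be mixed. This holds for Lhx1os, Otx2os1 (7782 UMIs), Six3os1 (115) and Gm10000 beside Gsc (299). Gsc was most similar to Gad1os (0.94), Samd3 and Erich2, and Otx1 to Meis2 (0.91), Dll1 and Pcmtd1. Among the genes close to Otx2 were Ank3 (0.95) and Tox3 (0.94). Hhex was most similar to Bmp2 (0.94), Atp8a1 and Gm15261, and Hesx1 to Fam89a (0.85), 6030498E09Rik and Gckr. For Six3 the nearest were Foxj1 (0.90), Pkd1l1 and Doc2b, and for Pax7 Ccdc114 (0.88), Cfap52 and Pdzrn4. The anterior streak class in these correlations holds both ciliated and Cer1-led nuclei, and between those RNA clusters Foxj1 went the other way from Six3, at 108 CPM in the ciliated and 6.49 CPM in the Cer1-led cluster. Among the 8 members other than Noto, which had too few UMIs for this, Gsc and Lhx1 (0.86) and Gsc and Pax7 (0.81) were most alike, and Hesx1 and Otx1 least (-0.32).

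Genes that act with these factors were described in 4 fixed lists, whose counts stand beside 7.34% of all genes at least 2-fold higher and 8.56% lower in anterior streak, and 14.4% and 23.3% in embryonic visceral endoderm. Of 9 LIM cofactors and Groucho corepressors, 2 were at least 2-fold higher in anterior streak than in epiblast and 1 lower, with a list median of 0.37 on the log2 scale against -0.01 over all genes. The corepressor Tle1 was 2.14-fold higher and Tle2 6.67-fold, the latter on 32 and 20 UMIs. Ssbp2 was at 0.28 times epiblast in anterior streak. In embryonic visceral endoderm 3 of the 9 were higher, Tle2 by 10.3-fold, and Ssbp2 was lower, at 0.04 times. Of 6 genes of the Nodal route, 1 was past the fold in anterior streak: Tdgf1, the Nodal co-receptor, at 3.17-fold. In embryonic visceral endoderm Nodal itself was 2.01-fold higher and Tdgf1 at 0.29 times epiblast. Of 4 antagonists, 2 were higher in anterior streak, Frzb at 4.87-fold and Shisa2 at 3.31-fold, and the same 2 in embryonic visceral endoderm, at 2.36-fold and 5.38-fold. Follistatin (Fst) was lower in embryonic visceral endoderm, at 0.16 times epiblast. Later head genes were sparse, with 6 of 10 measurable. In anterior streak 1 was higher and 4 were at most 0.5 times epiblast, including Lhx5 (0.11) and Pax6 (0.22). In embryonic visceral endoderm 3 of 6 were higher, with En1 at 9.99-fold and Pax2 at 6.34-fold, and 2 lower, Lhx5 (0.15) and Pax6 (0.16).

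Open chromatin around the members was then compared in RNA-defined classes, where the anterior streak class is the ciliated cluster. Of that cluster's nuclei 55.3% lay in the anterior streak class of accessibility. The epiblast class made from RNA held 1858 nuclei. In 8 RNA clusters, the Cer1-led one included, 4868 nuclei stayed unnamed. A peak was counted with at least 20 fragments in both classes together, and levels are CPM of peak counts. In the ciliated cluster 30 of 197 such peaks were at least 2-fold above epiblast and 11 at most 0.5 times, against 11.5% and 11.6% of all peaks. In the Cer1-led cluster 45 of 197 were higher and 26 lower, with 15.7% and 19.1% over all peaks. Embryonic visceral endoderm had 39 of 195 higher and 84 lower, against 18.8% and 38.6%, so that its members' peaks lay near the background. In other visceral endoderm 19 of 199 were higher and 115 lower, against 18.9% and 40.1%, and in embryonic mesoderm 41 of 212 were higher and 28 lower, against 16.3% and 16.4%.

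Summed over the 50 kb windows, accessibility of Gsc relative to epiblast was 2.07 in the Cer1-led cluster (1.92 to 2.22), 1.60 in embryonic mesoderm (1.51 to 1.70), 1.51 in embryonic visceral endoderm, 1.40 in the ciliated cluster and 0.39 in other visceral endoderm. The Hhex window was at 1.85 in the Cer1-led cluster (1.66 to 2.05) and 1.58 in embryonic visceral endoderm. Lhx1 was highest in embryonic mesoderm, at 1.51 (1.43 to 1.59). Noto and Hesx1 windows lay between 1.15 and 1.42 in the ciliated, Cer1-led and both visceral endoderm classes. These windows also held starts of expressed neighbours, among them Cct7 (60018 UMIs) and Smyd5 (8646) near Noto. Near Hesx1 these were Appl1 (14251 UMIs) and Il17rd (17532), and near Lhx1 Aatf (22297). The Noto window was at 277 CPM in extraembryonic ectoderm, against 214 in epiblast, so its level was not particular to the classes listed. Six3 and Pax7 windows were less open in visceral endoderm, at 0.28 and 0.19 times epiblast, and in embryonic visceral endoderm, at 0.56 and 0.35. In the Cer1-led cluster, where Pax7 and Six3 RNA was highest, their windows were at 1.05 (0.98 to 1.12) and 0.93 (0.87 to 0.99). The Pax7 window did not differ from epiblast beyond counting error, and the Six3 window was slightly less open.

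**Figure D3:**
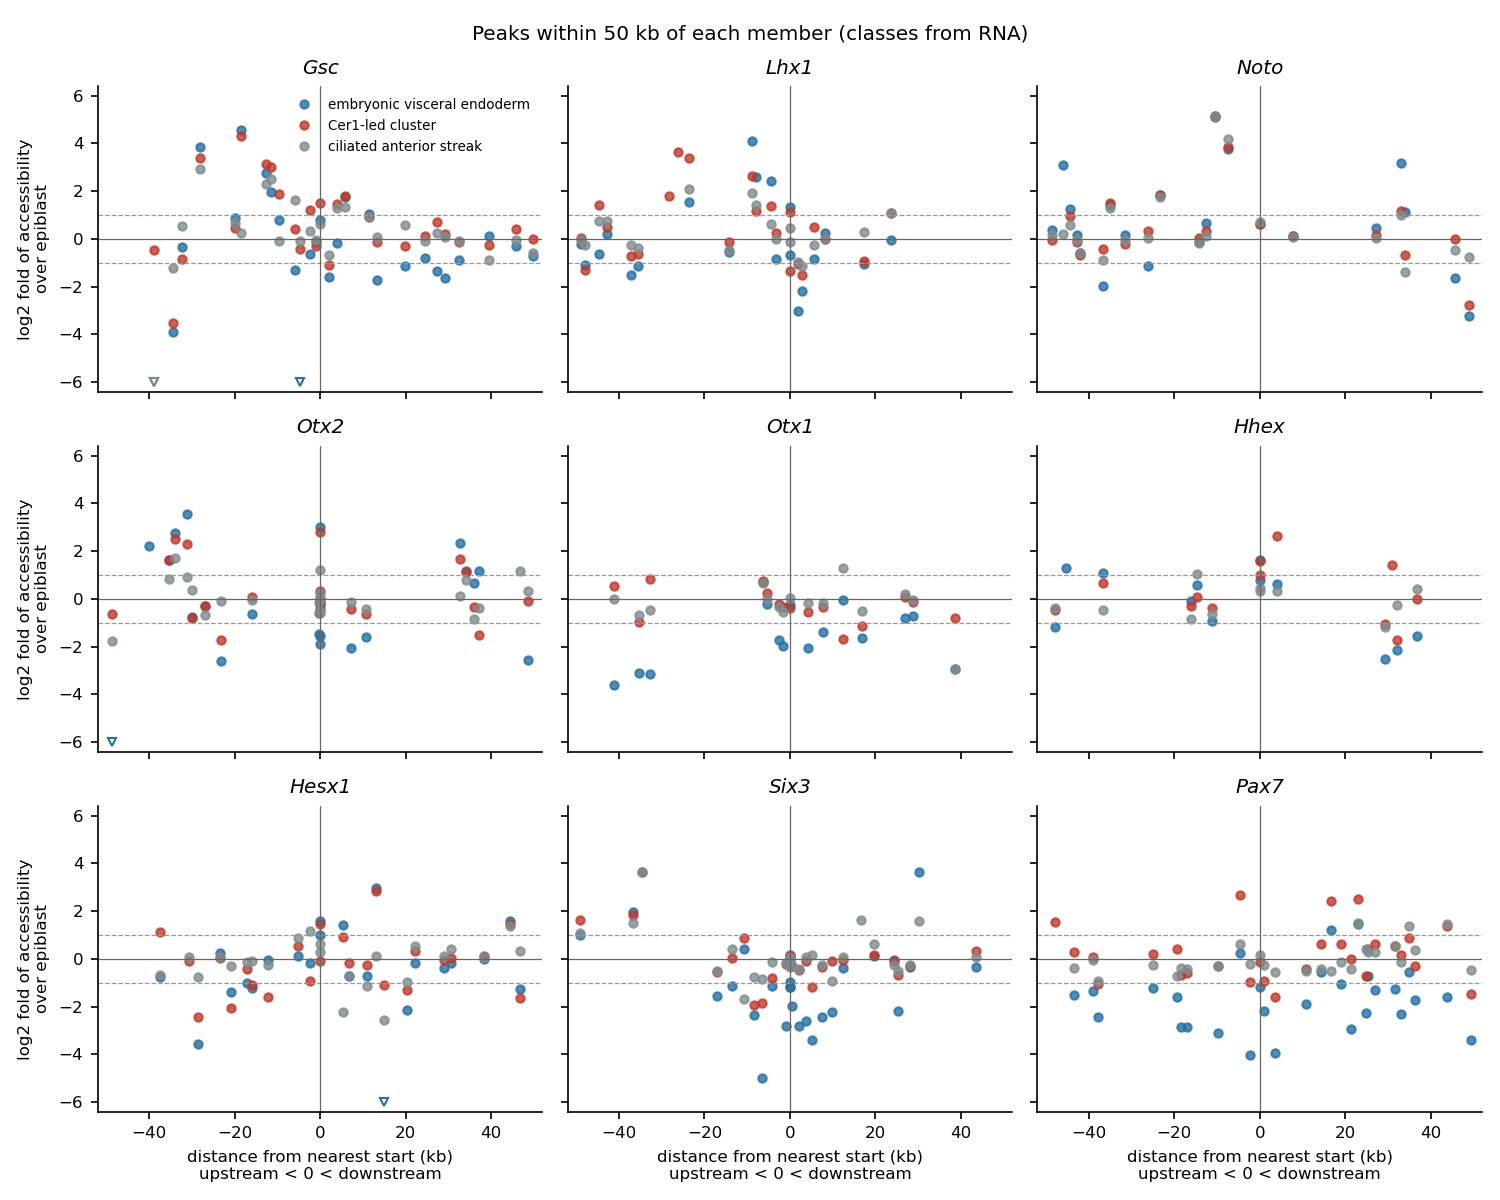
Log2 fold of accessibility over epiblast for each counted peak against its distance from the nearest start of the member, in kb along the gene's strand, in 3 classes made from RNA; dashed lines mark 2-fold and triangles at the bottom peaks with no fragment in the class. Upstream peaks of Gsc, Lhx1 and Noto rise above 8-fold, and in embryonic visceral endoderm 22 of 28 Pax7 peaks are at least 2-fold lower, against 38.6% of all peaks.

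At Gsc, the promoter peak over the sequence printed above (chr12:104472854-104473760, shared with Gm10000) was at 51.3 CPM in the Cer1-led cluster, 33.8 in embryonic mesoderm, 31.6 in embryonic visceral endoderm and 18.3 in epiblast. Larger contrasts lay upstream, at peaks within RefSeq bounds of Gm10000. The peak at chr12:104491891-104492802, 18561 bp upstream, was at 25.9 CPM in embryonic visceral endoderm, 22.3 in the Cer1-led cluster, 23.5 in haemato-endothelial progenitors and 17.5 in embryonic mesoderm, but at 1.31 in the ciliated cluster and 1.11 in epiblast. That is 23.2-fold over epiblast in embryonic visceral endoderm (14.8 to 38.3), within 12.6 to 33.2-fold in the Cer1-led cluster and 1.18-fold (0.43 to 2.86) in the ciliated cluster, although Gsc RNA there was 109 CPM. A peak 28184 bp upstream (chr12:104501514-104502399) was at 22.0 CPM in embryonic mesoderm (20.2-fold over epiblast), 19.0 in primitive streak, 16.3 in extraembryonic mesoderm, 15.9 in embryonic visceral endoderm (14.6-fold), 11.3 in the Cer1-led cluster (10.4-fold) and 8.17 in the ciliated cluster (7.51-fold), against 1.09 in epiblast. Both peaks were at 2.92 CPM or less in other visceral endoderm.

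Lhx1 had its promoter peak (chr11:84525356-84526194, shared with Lhx1os) at 51.8 CPM in embryonic mesoderm, 50.9 in other visceral endoderm, 48.8 in embryonic visceral endoderm, 42.5 in the Cer1-led cluster and 19.5 in epiblast. The promoter peak was as open in other visceral endoderm as in embryonic mesoderm, while the RNA of the matching accessibility classes was 66.8 and 725 CPM. Among distal peaks, one at chr11:84534312-84534920, 8777 bp upstream, was 17.0-fold over epiblast in embryonic visceral endoderm (10.4 to 29.2), 6.13-fold in the Cer1-led cluster, 5.56-fold in other visceral endoderm, 3.95-fold in embryonic mesoderm (2.29 to 7.07) and 3.82-fold in the ciliated cluster. Another at chr11:84553773-84554661, 28238 bp upstream, was 11.9-fold in embryonic mesoderm (6.44 to 24.0), with 1.89-fold (0.58 to 5.44) in embryonic visceral endoderm. The first was thus most open in embryonic visceral endoderm and the second in embryonic mesoderm among these classes.

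The Noto promoter was at 9.53 CPM in epiblast, 15.5 in the ciliated cluster (1.62-fold, 1.24 to 2.11), 14.8 in embryonic visceral endoderm, 6.29 in other visceral endoderm (0.66 times epiblast, 0.49 to 0.88) and 2.79 in extraembryonic ectoderm. A peak 7440 bp upstream (chr6:85415522-85416446) stood at 24.6 CPM in the ciliated cluster, 19.7 in the Cer1-led cluster, 18.7 in embryonic visceral endoderm and 10.8 in other visceral endoderm, against 1.37 in epiblast, 0.826 in embryonic mesoderm and 2.93 in primitive streak. In the ciliated cluster that was 17.9-fold over epiblast (12.1 to 27.4). A second one 10355 bp upstream (chr6:85412619-85413531), singled out after its values were seen, was at 14.6, 14.9 and 14.1 CPM in the ciliated, Cer1-led and embryonic visceral endoderm classes, at 4.08 in embryonic mesoderm and at 0.415 in epiblast. Both were open in nuclei with little Noto RNA, since the Cer1-led cluster had 1.40 CPM. No promoter of another gene in the deposited gene table overlapped them.

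At Hhex, a peak over the second start (chr19:37436680-37437444) was 3.13-fold over epiblast in embryonic visceral endoderm (2.49 to 3.92) and 3.03-fold in the Cer1-led cluster (2.39 to 3.82), while the first promoter peak was at 42.5 and 49.5 CPM. In haemato-endothelial progenitors the first promoter peak was at 44.3 CPM, against 24.7 in epiblast, and the second had 15 fragments against 119 at the first. Further downstream, the peak at chr19:37440722-37441590 was 6.18-fold in the Cer1-led cluster (3.44 to 11.4) and at 5.29 CPM in haemato-endothelial progenitors, but 1.52-fold in embryonic visceral endoderm (0.61 to 3.54). Hesx1 had a peak at its downstream start (chr14:27000186-27001084) that was 3.04-fold over epiblast in embryonic visceral endoderm (2.37 to 3.89) and 2.71-fold in the Cer1-led cluster. The peak 5371 bp beyond it (chr14:27005733-27006589) was at 24.8 CPM in embryonic visceral endoderm, 17.6 in the Cer1-led cluster, 15.2 in other visceral endoderm and 9.30 in epiblast, and at 1.97 CPM in the ciliated cluster, 0.21 times epiblast (0.10 to 0.39).

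For Pax7 the promoter peak was at 20.7 CPM in the Cer1-led cluster and 22.5 in epiblast (0.92-fold, 0.74 to 1.13). A peak 4646 bp upstream (chr4:139838174-139838967) was at 14.9 CPM in the Cer1-led cluster, 8.02 in embryonic mesoderm, 3.57 in the ciliated cluster, 2.72 in embryonic visceral endoderm and 2.31 in epiblast. It was 6.44-fold over epiblast in the Cer1-led cluster (4.48 to 9.32). Of 5 peaks over the range of Six3 starts, the 2 promoter peaks described here were likewise near epiblast in that cluster, at 1.10-fold (0.85 to 1.41) and 1.08-fold (0.79 to 1.46). The second of them, shown after its values were seen and also over the start of Gm28528, holds the stretch with the Foxh1 match shown above and was at 0.44 times epiblast in embryonic visceral endoderm (0.28 to 0.67). A peak 6604 bp upstream of Six3 (chr17:85606179-85607004) was at 5.96 CPM in epiblast, 3.29 in the ciliated cluster, 1.65 in the Cer1-led cluster and 0.188 in embryonic visceral endoderm. Another, 30158 bp downstream (chr17:85651189-85652108), went the other way in embryonic visceral endoderm, at 7.51 against 0.596 CPM in epiblast (41 and 14 fragments, a ratio of 12.6 with a lower bound of 6.73), with 2.72 CPM in other visceral endoderm, 1.78 in the ciliated and 0.206 in the Cer1-led cluster. An Otx1 peak at chr11:21971954-21972768, 28847 bp on the side of the gene's end, was at 22.3 CPM in embryonic mesoderm and 14.7 in primitive streak against 5.18 in epiblast (4.30-fold in mesoderm, 3.42 to 5.42). Its promoter peak, at 34.7 and 38.2 CPM in mesoderm and epiblast, did not differ beyond counting error (0.91, 0.80 to 1.03).

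At Otx2, the start peaks had different class patterns. The peak over the downstream end of its range of starts, inside the gene on the minus strand (chr14:48662541-48663443, which holds the 30 bases printed above) was at 29.8 CPM in embryonic visceral endoderm, 26.2 in the Cer1-led cluster, 20.6 in embryonic mesoderm, 15.1 in primitive streak, 8.64 in the ciliated cluster and 3.73 in epiblast. Embryonic visceral endoderm was 8.00 times epiblast there (6.10 to 10.6). The peak just upstream of the outermost start (chr14:48674168-48674981, also near Otx2os1) was at 11.5 CPM in epiblast, 10.5 in the ciliated cluster, 7.74 in the Cer1-led cluster, 4.13 in embryonic visceral endoderm and 1.86 in other visceral endoderm. There embryonic visceral endoderm was at 0.36 times epiblast (0.23 to 0.54). This pair was set side by side after its values were seen. Of the fragments at both peaks, the downstream one had 25.3% in epiblast (20.6 to 30.4), 46.4% in the ciliated cluster (36.8 to 56.1), 77.3% in the Cer1-led cluster (70.6 to 83.2) and 87.1% in embryonic visceral endoderm (81.6 to 91.5). Another peak, over the outermost start itself (chr14:48673332-48674041), was at 5.08 CPM in epiblast, 4.22 in embryonic visceral endoderm, 7.18 in primitive streak, 6.29 in the Cer1-led cluster and 1.81 in extraembryonic ectoderm. Against that peak the downstream share was 41.8% in epiblast (34.7 to 49.0), 63.0% in the ciliated cluster (51.5 to 73.4) and 87.6% in embryonic visceral endoderm (82.1 to 91.9), so the epiblast value depends on the pair taken. Against the upstream peak, embryonic mesoderm stood at 69.6% and other visceral endoderm, with little Otx2 RNA, at 78.9%. The UMI counts do not say at which start a transcript began.

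**Figure D4:**
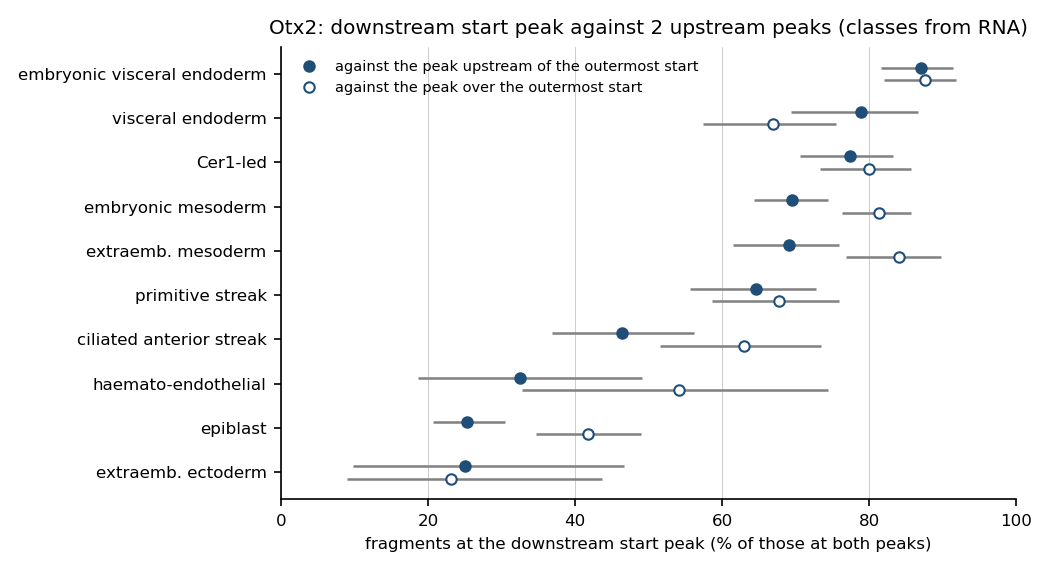
Share of fragments at the downstream Otx2 start peak, in percent of fragments at it and a second peak together, by class of nuclei made from RNA; bars are 95% binomial intervals. Filled points are against the peak upstream of the outermost start (25.3% in epiblast, 87.1% in embryonic visceral endoderm) and open points against the peak over it (41.8% and 87.6%).

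Shares at the downstream of 2 start peaks also varied at other members. The share at the second Hhex start was 25.3% in epiblast, 37.9% in embryonic visceral endoderm (33.1 to 43.0) and 11.2% in haemato-endothelial progenitors. For Hesx1 it was 15.1% in extraembryonic ectoderm (8.30 to 24.5), 49.2% in epiblast, 59.3% in embryonic visceral endoderm and 73.9% in the Cer1-led cluster (65.6 to 81.1). For Lhx1 it was 31.1% in epiblast (27.5 to 34.9) and 7.14% in embryonic mesoderm (5.24 to 9.47), and for Six3 41.1% in epiblast (36.8 to 45.5) and 27.4% in embryonic visceral endoderm (18.7 to 37.5). Upstream of Otx2, within RefSeq bounds of Otx2os1, the peaks 31182 bp and 33907 bp from the outermost start (chr14:48705001-48705877 and chr14:48707726-48708564) were 11.7-fold (7.77 to 18.2) and 6.81-fold (4.75 to 9.86) over epiblast in embryonic visceral endoderm. The first was also open in other visceral endoderm, at 6.99 CPM or 4.65-fold over epiblast, and the second was not, at 1.61 against 2.38 CPM.

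Finally, nuclei with and without a UMI of a member were compared within an RNA-defined class for accessibility of that member's window. In embryonic visceral endoderm the Gsc window was 1.51 times as open in the 349 nuclei with Gsc RNA as in the 229 without (1.31 to 1.76). The Otx2 window stood at 1.22 (1.05 to 1.43) in the same class. In the Cer1-led cluster the ratio was 1.33 for Hhex (1.09 to 1.64), 1.23 for Gsc (1.03 to 1.47) and 1.16 for Six3 (1.01 to 1.32). It was 1.02 for Pax7 (0.88 to 1.17) and 1.09 for Otx2 (0.86 to 1.40) there. Ratios below 1 were those of Hesx1 (0.87 to 1.14) and Six3 (0.97) in embryonic visceral endoderm, of Hhex in embryonic mesoderm (0.97, 0.69 to 1.34), and in epiblast those of Otx2 (0.98), Six3 (0.87, 0.72 to 1.03) and Hhex (0.85, 0.60 to 1.16). Of 23 such comparisons, 8 had an interval above 1, none below 1, and 15 held 1. Nuclei with a UMI were deeper, with median UMIs of 16120 against 12373 for Gsc in embryonic visceral endoderm, and the part of depth in these ratios was not tested.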

How the data were processed

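Nuclear RNA and accessibility of the same nuclei were deposited by the authors as 1 matrix of counts, UMIs per gene and cut counts per peak, made with Cell Ranger ARC 2.0.0 on mm10, per the submitters' processing notes and the file headers. The use of strand is not given in the sources used here. Of peak counts above 0, 86.4% were even, so fragments were estimated as counts divided by 2, rounded up.

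Nuclei were kept from 1000 UMIs, 500 genes and 1000 peak counts upward if mitochondrial UMIs made up no more than 20%, after removal of 1154 doublet calls. Clusters were made with scanpy 1.11.5 and leidenalg 0.10.2 at resolution 1. Marker genes named them by a score set after seeing the data. It asked for a mean log2 fold of at least 0.6 and 3 markers raised 1.5-fold. A cluster also stayed unnamed if another list rivalled the leading one by score (above 0.75 of it) or by number of top genes. From RNA, 8 clusters with 38.0% of nuclei stayed unnamed. They included a cluster of 1211 nuclei with an epiblast score of 0.508 and a cluster of 967 with 0.842. The RNA epiblast class, the reference of the peak folds, thus held 1858 nuclei. Fold changes compare summed counts scaled to the class total (CPM), and 2-fold was the call. The computation of RNA folds, their intervals and the 2-fold call was tested on simulated Poisson counts. Clustering, class naming, peak fragments and spread between nuclei were not part of that test.

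All 9 members were described. Peaks were named as promoter peaks or as those with the largest fold of one class over all other nuclei, up to 3 per member among peaks with at least 100 fragments, and others are said to be chosen after their values were seen. Similar genes were the 3 with the highest correlation, and pathway genes those with the largest folds. Some genes that these rules select are not reported here. The members and lists were chosen with earlier results of these data known. Clustering resolution, doublets, depth, members kept in clustering, scaling and window size were varied.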

Additional observations from a re-analysis of the deposited data

How the results depend on the processing

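The number of members highest in anterior streak was 7 and became 4 at resolution 2, so the highest class given above for single members holds for the main grouping only. No share over all genes is given for this count. Members at least 2-fold above epiblast in other visceral endoderm numbered 1, or 2 with a mean over nuclei of each nucleus's CPM. With a window of 10 kb fewer peaks were examined, and those at least 2-fold above epiblast numbered 8 of 66 in the ciliated cluster (30 of 197 with 50 kb, and 11.5% of all peaks), 5 of 65 in other visceral endoderm (19 of 199, and 18.9%) and 11 of 66 in embryonic visceral endoderm (39 of 195, and 18.8%). At resolution 2 the fold of Hesx1 in anterior streak over epiblast was 0.991, against 2.80. The fold of Otx2 in embryonic visceral endoderm over epiblast was 0.65, but 1.35 at resolution 2, 1.12 with doublet calls kept, 1.13 with at least 2000 UMIs and 2000 peak counts, and 1.11 with the members kept in clustering. The cause was not tested. The folds of single members were recomputed 154 times over the alternatives, and 53 of these values left the counting interval without such a reversal, 5 reversed as given above and 96 stayed within it. Each assay had 1 library, so no comparison between classes had a replicate, although RNA and accessibility came from the same nuclei. The precision of Noto, Pax7, Otx1, Hesx1 and Six3 is limited by their few UMIs.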
